A study of Mus musculus with 10 samples.

Results

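The Zfp genes are the mouse genes named "zinc finger protein" with a number, and they make up a large part of the transcription factors that a mouse cell can express. They were chosen by their symbol (Zfp followed by digits alone, without Zfp36) and by a mean normalized count of at least 100. Of the 13091 genes listed in this RNA sequencing experiment, 270 carried such a symbol and 201 of these (74.4%) reached that minimum. Of all listed genes 10321 (78.8%) reached it. The study compared neutrophils with and without vimentin, an intermediate filament protein, at rest and after lipopolysaccharide (LPS), the outer membrane component of Gram-negative bacteria that is sensed by Toll-like receptor 4.

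The neutrophils were grown from bone marrow progenitors that had been immortalized with an estrogen-dependent form of the transcription factor HoxB8, sorted as individual cells and expanded as clones. The strain was given as 129-SVEV. There were 2 Vim+/+ and 3 Vim-/- biological replicates by the labels, each with 1 unstimulated library and 1 library after 1 hour with 25 ng/mL LPS, 10 polyA libraries in all. A vimentin knockdown is what the labels state for the Vim-/- cells, while the methods name bone marrow of knockout mice. The descriptions give the LPS and the unstimulated library of a replicate the same number, but whether a replicate was 1 clone is not stated in the sources used here.

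The level used throughout is the mean of the normalized counts over all 10 libraries, which is the authors' own mean for each gene. It pools the 4 groups, so it carries no replicate error, and no comparison between genotypes or between LPS and rest was made with it. The depth of the individual libraries is unknown. Vim itself had an authors' mean of 39926, and because this is a mean over both genotypes it cannot check the label of any library. Mean normalized counts are not corrected for gene length, and a longer transcript yields more reads. Classes of Zfp genes were therefore compared by the mean divided by the length of the annotated exons, written as normalized count per kilobase, and undivided counts are given as a description. In bulk RNA of this kind, fewer cells of a type and less RNA per cell cannot be told apart.

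All 12 of 12 neutrophil markers were listed, with mean normalized counts from 11373 for Ly6g, a surface marker of mature mouse neutrophils, to 1290830 for S100a9, a subunit of calprotectin. Markers of progenitors and cycling cells were also present (6 of 6, from 1075 for Kit to 121760 for Mpo, the granule enzyme myeloperoxidase). So were the 3 eosinophil markers, from 4599 for Siglecf to 268319 for Prg2, and the 3 basophil and mast cell markers, from 593 for Ms4a2 to 26296 for Cpa3. Of 4 macrophage and monocyte markers 3 were listed, from 3269 for Csf1r to 26480 for Ly6c2, and C1qa was not listed. The erythroid markers had 0 of 3 listed, the B cell markers 1 of 3 (Cd79a, 83.8) and the T cell markers 1 of 3 (Cd3d, 250.3). The part of these other cell types in the levels of the Zfp genes was not tested.

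Most Zfp proteins bind DNA or RNA through C2H2 zinc fingers, small folds in which a pair of cysteines and a pair of histidines hold a zinc ion. Fingers are usually repeated in tandem, and each contacts a few neighbouring bases, so that a long array reads a long site. Many mouse Zfp proteins also carry a KRAB box, a short domain that recruits the corepressor TRIM28 and through it the histone methyltransferase SETDB1 and heterochromatin proteins. This system silences endogenous retroviruses, protects imprinted loci and has grown by repeated gene duplication, which left its genes in clusters on the chromosomes. Other members carry a SCAN domain or a BTB domain, through which transcription factors pair with each other, and several do not act on DNA at all but on RNA or ribosomes.

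The repeated design can be read from the coding sequences. The first fingers of Zfp217, a component of corepressor complexes with CoREST, and of Zfp710 are shown because these genes had the highest levels per kilobase among the members with fingers and no KRAB box. The codons of the 4 zinc-binding residues are in capitals, and the stretches lie at chr2:170119977-170120039 (minus strand) and chr7:80081971-80082033 (plus strand) of GRCm38, each within 1 coding exon.
Zfp217 finger 1: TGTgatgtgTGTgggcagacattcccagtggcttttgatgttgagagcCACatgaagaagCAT
Zfp710 finger 1: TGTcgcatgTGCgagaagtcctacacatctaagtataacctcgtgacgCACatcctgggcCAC
Both encode the spacing cysteine, 2 residues, cysteine, 12 residues, histidine, 3 residues, histidine, which is the pattern by which fingers were counted.

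Zfp971 and Zfp619 show the same unit in KRAB members at different levels. Zfp971, with 12 fingers, had the highest level per kilobase of the KRAB members. Zfp619, with 33 fingers, held the most fingers of that pattern among the members. Their last 3 fingers are given on the plus strand of GRCm38, within 1 coding exon each, at chr2:178033762-178033992 for Zfp971 and chr7:39537797-39538027 for Zfp619, leaving out the linkers between fingers.
Zfp971 finger 10: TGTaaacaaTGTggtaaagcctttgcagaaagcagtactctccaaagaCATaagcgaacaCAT
Zfp971 finger 11: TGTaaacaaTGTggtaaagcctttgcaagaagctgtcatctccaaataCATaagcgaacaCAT
Zfp971 finger 12: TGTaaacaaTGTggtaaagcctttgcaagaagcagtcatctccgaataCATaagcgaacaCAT
Zfp619 finger 31: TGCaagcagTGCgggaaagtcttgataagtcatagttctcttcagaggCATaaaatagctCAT
Zfp619 finger 32: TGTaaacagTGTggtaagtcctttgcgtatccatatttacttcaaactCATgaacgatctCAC
Zfp619 finger 33: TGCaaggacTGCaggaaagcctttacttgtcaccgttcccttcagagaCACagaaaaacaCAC
The fingers of Zfp971 were nearly copies of each other, with a median of 85.7% of the 63 coding bases the same over its 66 pairs of fingers, from 76.2% to 100%. In Zfp619 the median was 61.9% over 528 pairs, from 42.9% to 85.7%. Successive fingers began 28 residues apart at all 11 steps in Zfp971 and at 29 of 32 steps in Zfp619.

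The KRAB boxes of Zfp971, Zfp935 and Zfp619 are shown because the first pair had the highest levels per kilobase of the KRAB members and the third was among the lowest. Capitals mark the codons of the fixed residues by which the box was recognized, and the stretches lie at chr2:178031267-178031314 (plus strand), chr13:62457000-62457047 (minus strand) and chr7:39533805-39533852 (plus strand) of GRCm38.
Zfp971 KRAB box: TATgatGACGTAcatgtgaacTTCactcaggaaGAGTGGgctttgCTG
Zfp935 KRAB box: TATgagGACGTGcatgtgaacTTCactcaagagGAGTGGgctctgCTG
Zfp619 KRAB box: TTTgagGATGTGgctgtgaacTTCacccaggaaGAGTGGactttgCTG
The stretch began at residue 6 of the annotated protein in each.

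The Zfp genes were low in these cells as a group. Their mean normalized counts ran from 100.05 to 12495, with a median of 553 and quartiles of 262 and 1157, while all 10321 genes at or above the same minimum had a median of 1543. Of the 201 members 80.6% lay under that median and 61 were at 1000 or more. Together they made up 1.95% of the genes at or above the minimum and 0.390% of the summed mean counts of all listed genes. The 10 highest members held 31.0% of the sum over the members. Near the minimum, which chose the members, Zfp438 (100.05), Zfp202 (100.15) and Zfp759 (101.8) lay just inside, and Zfp90 (96.9), Zfp799 (95.7) and Zfp58 (95.5) just outside. In all, 69 genes with such a symbol were listed below the minimum.

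**Figure D1:**
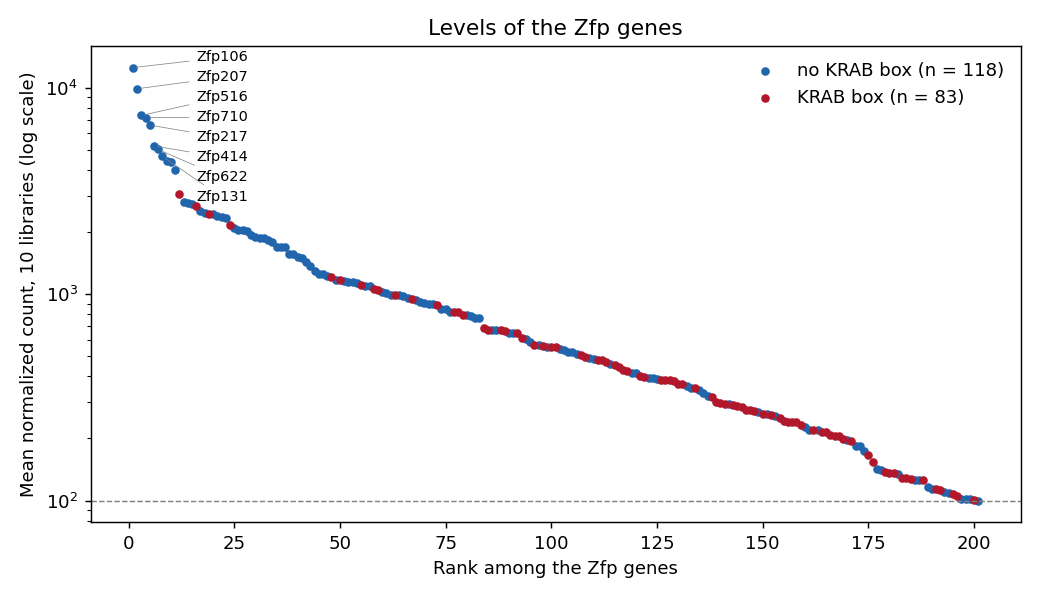
Mean normalized count over the 10 libraries (log scale) of the 201 Zfp genes, ranked from highest to lowest. Each point is 1 gene, red with a KRAB box and blue without, and the dashed line is the minimum of 100. Zfp106 at 12495 and Zfp207 at 9865 stand at the left, and the highest gene with a KRAB box, Zfp445, is at 3066.

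After division by exon length the same position held. The median of the members was 114 normalized counts per kilobase (quartiles 55.7 and 235), against 351 (quartiles 126 and 1007) for the 9574 protein coding genes at or above the minimum, which include the members. Of the 201 members 110 (54.7%) were below the first quartile of those genes, 54 between it and their median, 31 between the median and the third quartile and 6 (2.99%) above that. The members ranged over 295-fold, from 7.61 per kilobase for Zfp846 to 2249 for Zfp414.

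The highest members included both proteins with finger arrays and proteins without. Zfp106, an RNA-binding protein needed for motor neuron and muscle upkeep, had the highest mean normalized count, 12495, or 1198 per kilobase, and 26.1% of its exonic bases were also covered by another annotated gene. Zfp207, which is the spindle assembly factor BuGZ and binds the checkpoint protein BUB3, followed with 9865, or 1482 per kilobase. Neither contains a finger of the strict pattern, whereas the next 3 do. Zfp516, which occupies promoters of brown fat genes, had 7327 (885 per kilobase), Zfp710 had 7147 (1032), and Zfp217 had 6580 (1072).

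Zfp414 had a mean normalized count of 5214 and stood first per kilobase at 2249, above 87.5% of the protein coding genes at or above the minimum. Of the 100-base windows of its longest transcript, 42.0% were shared with transcripts of at least 1 other gene, most often Gm20507. At least 1 other gene covered 30.4% of its exonic bases. How reads from those stretches were assigned is not given in the sources used here, so the level of Zfp414 is uncertain. Zfp622, a factor of the maturation of the large ribosomal subunit, had 5018 (704 per kilobase). Zfp131, the only member with a BTB domain by the pattern used, had 4645 (1007 per kilobase), Zfp384 had 4434 (691) and Zfp608 had 4376 (514). Of the 10 highest members by count, 7 were also among the 10 highest per kilobase, where Zfp971 (1007), Zfp263 (886) and Zfp830 (864) took the other places.

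By domain, 83 of the 201 members (41.3%) carried a KRAB box by the pattern used and 118 did not. A box that departs from the pattern is counted as absent, so some of the 118 may carry one. A looser pattern, in which 1 fixed residue may differ, found 91 members. A SCAN domain was found in 9, of which 4 also had a KRAB box, and a BTB domain in 1. The median member had 9 fingers, 90 had 10 or more, and 26 had none of the strict pattern, of which 6 had none of a wider pattern either. KRAB members had a median of 11 fingers and members without the box a median of 5. At least 10 fingers were present in 67.5% of KRAB members and 28.8% of the others.

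The KRAB members had the lower pooled levels. Their median level was 69.1 normalized counts per kilobase (quartiles 47.4 and 141, from 7.61 to 1007), against 141 (quartiles 76.6 and 374, from 10.99 to 2249) for members without the box, a ratio of 2.04 between the medians. The ranges overlapped over most of their length. By mean normalized count, 9 of 83 KRAB members (10.8%) reached 1000, against 52 of 118 (44.1%) without the box, and KRAB members made up 19.98% of the sum over all members. Of the 25 members highest per kilobase, 4 had a KRAB box, namely Zfp971, Zfp935, Zfp949 and Zfp869. Below the first quartile of the protein coding genes at or above the minimum lay 68.7% of KRAB members and 44.9% of the others. These are descriptions of pooled means, and no test of the difference was possible over samples.

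**Figure D2:**
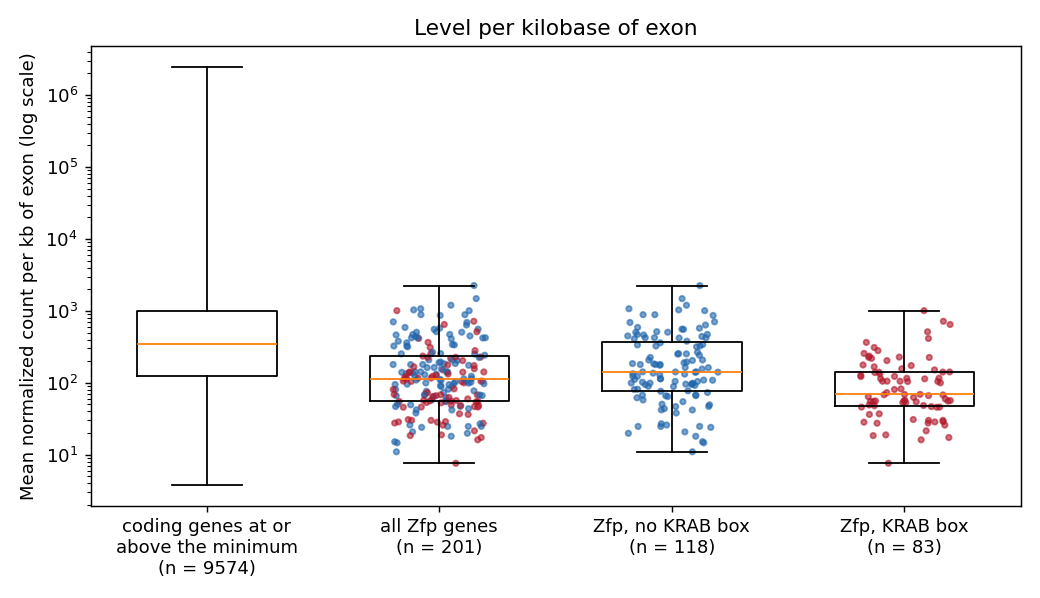
Mean normalized count per kilobase of exon (log scale) for all 9574 protein coding genes at or above the minimum and for the Zfp genes, together and by KRAB box. Boxes give the quartiles and median, whiskers the lowest and highest gene, and points are single Zfp genes spread sideways for legibility. The median is 351 over these coding genes, 141 in Zfp genes without the box and 69.1 in those with it.

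The KRAB members with a mean normalized count of 1000 or more numbered 9, with no gap to those below. Zfp445, which protects imprinted loci and carries a SCAN domain as well, had 3066 (414 per kilobase), Zfp949 had 2659 (647), Zfp871 had 2432 (219) and Zfp971 had 2161 (1007). For Zfp971, 13.8% of 100-base windows were shared with transcripts of another gene. Zfp68 had 1204, Zfp935 had 1169, Zfp719 had 1107, Zfp868 had 1056 and Zfp568 had 1042. Zfp568 is the repressor of a placental transcript of Igf2. The value of Zfp935 is uncertain, since 99.3% of its windows were shared with transcripts of at least 1 other gene, most often Gm49359. At least 1 other annotated gene covered 100% of its exonic bases, and its annotated protein held no finger.

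The KRAB members with a known role in silencing were at different levels. Zfp809, which recognizes the primer binding site of retroviruses and recruits TRIM28 to it, had 667 (225 per kilobase), which is above the median of its class. Zfp57, which with Zfp445 maintains DNA methylation at imprinted loci, had a mean normalized count of 14.2 and was no member. Per kilobase, Zfp445 was at 414 and Zfp57 at 3.74.

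The SCAN members without a KRAB box by the pattern numbered 5. Zfp263 was at 4004 (886 per kilobase), Zfp24, needed for myelination, at 891 (142), Zfp444 at 565 (94.9), Zfp397 at 606 (73.4) and Zfp213 at 126 (46.7). The other 3 SCAN members with a KRAB box besides Zfp445 were Zfp110 at 469, Zfp369 at 207 and Zfp202 at 100.15. Of the SCAN members only Zfp263 and Zfp445 exceeded 1000 by count.

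Members with fingers but no other domain of the patterns numbered 87 and had a median of 132 per kilobase. Zfp217 (1072), Zfp710 (1032) and Zfp516 (885) were the highest of them. The 25 members with neither a strict finger nor a KRAB box had a median of 251 per kilobase, the highest of the classes with more than 1 gene, and Zfp414 (2249), Zfp207 (1482) and Zfp106 (1198) led it.

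Median levels were lower in groups of members with more fingers of the strict pattern. The median per kilobase was 330 for the 26 members with no strict finger, 163 for the 30 with 1 to 4, 114 for the 55 with 5 to 9, 105 for the 51 with 10 to 14, and 59.7 for the 39 with 15 or more. Spearman's rho between fingers and level per kilobase was -0.36 over the 201 members, -0.21 within the 83 KRAB members and -0.28 within the 118 others. These correlations run across genes of the same libraries, whose counts share the same length division, and are given with no test. The groups depend on the strict pattern. By the wider pattern 6 members in place of 26 had no finger, and Zfp143 had 7 in place of 0. Neither the groups nor the correlations were recomputed by the wider pattern. The members with most fingers of the strict pattern were Zfp619 (33 fingers, 21.5 per kilobase), Zfp236 (26 fingers, 112), Zfp646 (25 fingers, 195) and Zfp62 (25 fingers, 207). Zfp619 lay above 1.80% of the protein coding genes at or above the minimum, and Zfp62 above 36.2%. All 4 were under the median of 351 over those genes. By the wider pattern Zfp142 (37 fingers) and Zfp462 (34 fingers) held more than Zfp619 (33 fingers).

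**Figure D3:**
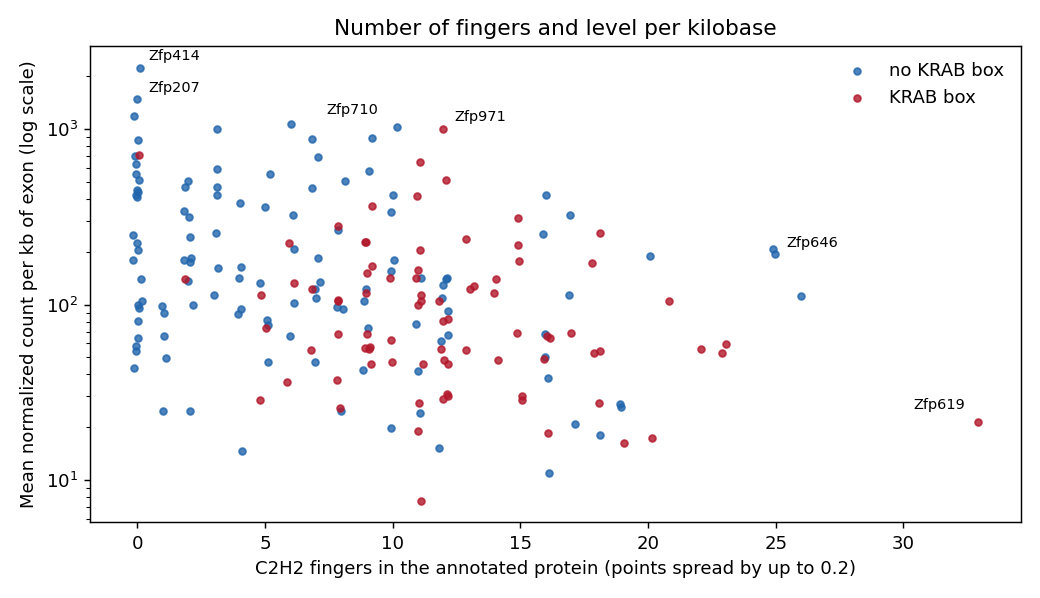
Number of strict C2H2 fingers in the annotated protein (horizontal) against mean normalized count per kilobase of exon (vertical, log scale) for the 201 Zfp genes, red with a KRAB box and blue without. Points are spread sideways by up to 0.2. The 3 highest points, among them Zfp414 and Zfp207, are at 0 fingers, and Zfp619 with 33 fingers is at 21.5.

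Of a list of 38 Zfp genes with a described role, 33 were members, 3 were below the minimum (Zfp57 at 14.2, Zfp711 at 23.2, Zfp827 at 57.6) and Zfp521 and Zfp532 were not listed. Those acting on RNA and ribosomes were spread widely. Zfp598, the ubiquitin ligase that senses collided ribosomes, had 2477 (636 per kilobase) and Zfp622 had 5018 (704). Zfp830, a splicing factor, had 1374 (864), and Zfp638, an RNA- and DNA-binding nuclear protein, had 1514 (95.8). Zfp593, a factor of the large ribosomal subunit, had 294 (141), with 77.9% of its exonic bases covered by another gene. Zfp326, which couples splicing to elongation, had 416 (57.7), Zfp346, which binds double-stranded RNA, had 414 (99.1) and Zfp318 had 343 (24.8).

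The listed transcription factors and corepressor components also ranged widely. Zfp281, a partner of pluripotency factors, had 2326 (471 per kilobase), its paralog Zfp148 had 1688 (163), Zfp143, a factor at promoters and chromatin loops, had 1562 (448), and Zfp335, needed in T cell development, had 2725 (575). Zfp143 held no finger of the strict pattern. Zfp410, whose known target is Chd4, had 994 (89.6), while Chd4 itself had 23199 (2893 per kilobase). Zfp91, a ubiquitin ligase of the non-canonical NF-kB pathway, had 2431 (242). Among corepressor components, Zfp687 had 2517 (423) and Zfp592 had 2349 (317), whereas their complex partner Zfp532 was not listed. Zfp644, a partner of the methyltransferase G9a, had 1139 (81.4), Zfp746, known as PARIS, had 2048 (255), Zfp652 had 2039 (132) and Zfp467 had 392 (92.1). Zfp706 had 2760 (554), and Zfp292 had 1791 (179).

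The partners through which KRAB proteins silence chromatin had a median close to that of the coding genes at or above the minimum. Of 22 such partners 21 were listed and all 21 reached the minimum (Atf7ip2 was not listed), with a median of 350 per kilobase, against 351 for the protein coding genes at or above the minimum and 69.1 for the KRAB members. Dnmt3b, Fam208a and Smarcad1 (47.5 per kilobase) lay below the KRAB median. Trim28, the corepressor itself, had 4912 (1181 per kilobase, above 78.2% of the protein coding genes at or above the minimum), and 3 of the 201 Zfp genes were above it per kilobase. Setdb1, the methyltransferase it recruits, had 1059 (155), and the heterochromatin protein genes Cbx1, Cbx3 and Cbx5 had 306, 350 and 215 per kilobase. Of the NuRD complex, Chd4 had 2893 per kilobase and its paralog Chd3 330, Mta2 had 2205 and Mta1 669, and Hdac1 had 1628 and Hdac2 444. The de novo DNA methyltransferase Dnmt3b was the lowest with 22.8 per kilobase, against 1144 for the maintenance enzyme Dnmt1. Of the HUSH complex, Mphosph8 had 109, Fam208a 36.0 and Pphln1 452 per kilobase. Per kilobase, 16 of the partners lay above the median Zfp gene.

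Other zinc finger families were described by the same measure. The median per kilobase was 131 for the 34 Zbtb genes at or above the minimum, 176 for 7 Zscan genes and 124 for 7 Zkscan genes, against 114 for the Zfp genes. It was 372 for 11 Klf genes, 365 for 12 Zc3h genes, which bind RNA through another kind of finger, and 3257 for Zfp36 and its paralogs Zfp36l1 and Zfp36l2, which bring mRNA decay to AU-rich elements and were not members. These medians come from families of unequal size and were not tested.

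The annotation holds more Zfp genes than were listed. GENCODE lists 365 protein coding genes with such a symbol, counting Zfp607 by its synonym, of which 269 had a row and 201 reached the minimum (55.1%). By KRAB box, 128 of 187 (68.4%) had a row and 83 (44.4%) reached the minimum, against 141 of 178 (79.2%) and 118 (66.3%) of those without the box. The same shares over all annotated coding genes are not given here. Of the 96 coding Zfp genes not listed, 59 had a KRAB box. Zfp939, which was listed below the minimum, is annotated as a pseudogene. The filter by which the authors chose the listed genes is not given in the sources used here.

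Chromosomes 7 and 17 held the most members. The spread of all annotated Zfp genes over the chromosomes is not given here, so these shares do not set the members apart from other Zfp genes. Chromosome 7 held 48 of 201 (23.9%), against 7.65% of all genes with a position at or above the minimum. Chromosome 17 held 24 (11.9%), against 5.44%. Chromosomes 8 and 13 followed with 14 each (6.97%, against 5.49% and 3.67% of all genes). Chromosome 10 held 0 members, against 4.93% of all genes. Of the 24 members on chromosome 17, 17 had a KRAB box, as did 10 of 14 on chromosome 13, 11 of 13 on chromosome 9 and 20 of 48 on chromosome 7.

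**Figure D4:**
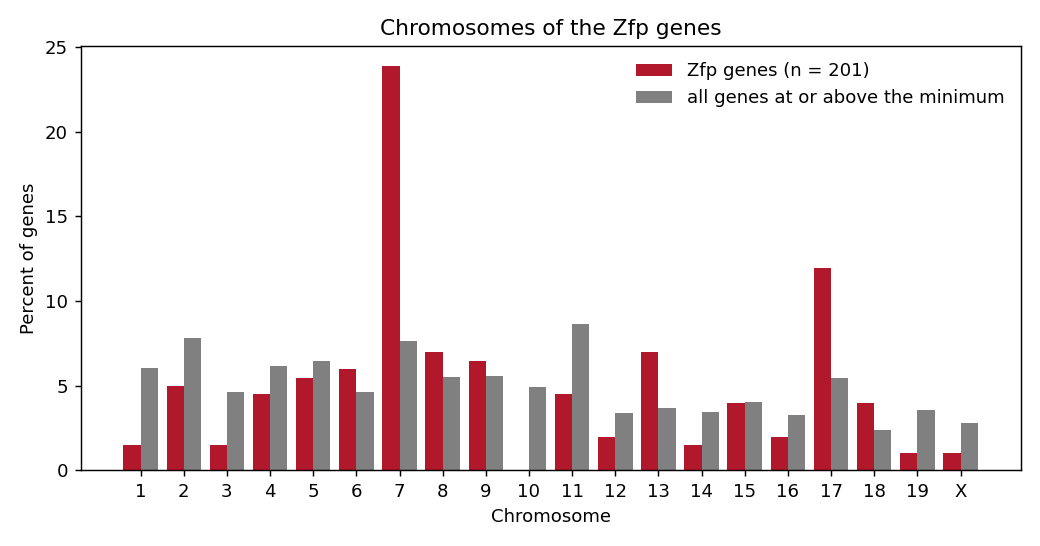
Share of the 201 Zfp genes (red) and of all genes with a position and a mean normalized count of at least 100 (grey) on each chromosome, in percent. The bars of chromosomes 7 (23.9%) and 17 (11.9%) stand above the others, and none of the 201 genes lies on chromosome 10.

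Members no more than 500 kb from the next were joined into clusters. There were 17 clusters of 3 or more, with 89 members, 8 pairs with 16 members, and 96 members that stood alone. KRAB boxes were carried by 62.9% of members in clusters and 25.0% of those alone. The median level per kilobase was 94.9 in clusters, 132 in pairs and 133 alone. Among KRAB members it was 71.0 in clusters and 84.1 alone, and among the others it was 109 in clusters and 163 alone.

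Which cluster was largest depended on the distance, and at 200 kb it held 7 members and lay on chromosome 13. At 500 kb the largest cluster lay on chromosome 17 from 21008903 to 23564238 of GRCm38. It spanned 2.56 Mb and held 14 members of 22 annotated Zfp genes in that interval. Of the 14, 11 had a KRAB box, and 13 had one by the looser pattern. From the first gene onward, Zfp160 had 53.1 normalized counts per kilobase, Zfp677 had 66.3, Zfp54 had 48.4, Zfp51 had 256, Zfp53 had 310, Zfp52 had 141 and Zfp760 had 64.2. Zfp942 had 105, Zfp943 had 99.7, Zfp944 had 204, Zfp758 had 45.7, Zfp945 had 18.1, Zfp40 had 50.5 and Zfp213 had 46.7. Zfp51, Zfp53 and Zfp52, all above 140 per kilobase, lay side by side, and high and low genes were direct neighbours elsewhere, as with Zfp944 at 204 and Zfp758 at 45.7.

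**Figure D5:**
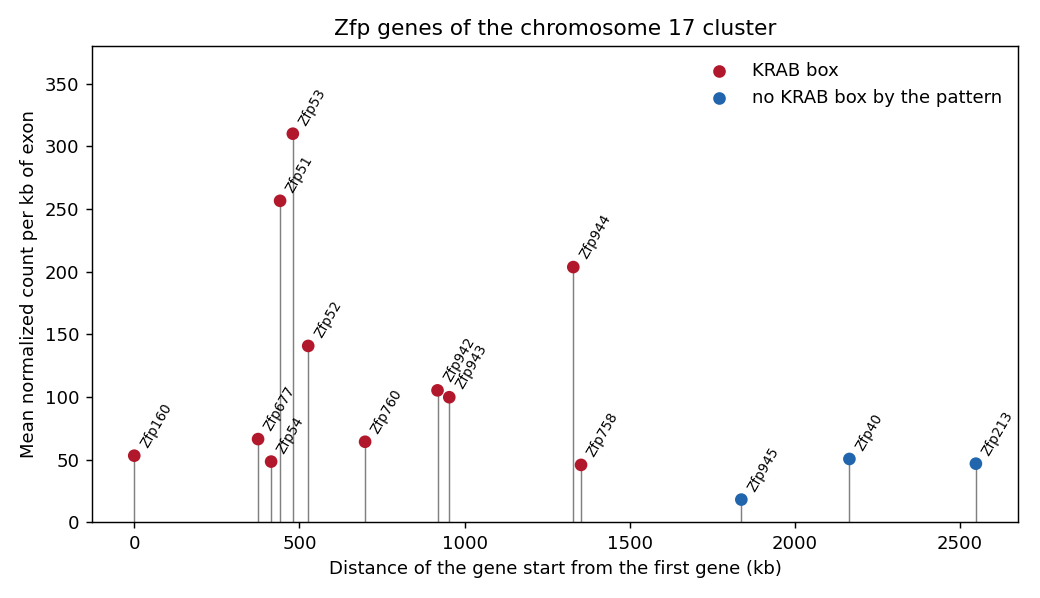
The 14 Zfp genes of the chromosome 17 cluster, by the distance of each gene start from that of the first (kb), against mean normalized count per kilobase of exon (linear axis from 0), red with a KRAB box and blue without by the pattern. Zfp53 at 310 and Zfp51 at 256 are the highest, and Zfp945 at 18.1 the lowest.

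Other clusters differed in makeup. A cluster of 6 on chromosome 7 (4915217 to 5053723: Zfp628, Zfp579, Zfp524, Zfp865, Zfp784 and Zfp580) held no KRAB box and had a median of 187 per kilobase. In contrast all 5 members of a cluster on chromosome 9 (Zfp560, Zfp26, Zfp426, Zfp266 and Zfp846) had one and their median was 56.0. The 4 members on chromosome 8 (Zfp868, Zfp869, Zfp963 and Zfp866), all with a KRAB box, had the highest median of the clusters, 223 per kilobase, and of these Zfp963 and Zfp866 shared at least 10% of their windows with another gene. The cluster with the lowest median, 23.0 per kilobase, was that of Zfp60, Zfp626, Zfp607 and Zfp850 on chromosome 7.

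Promoter windows were read for the base composition that marks CpG islands, the usual promoter type of broadly expressed genes. RefSeq promoter windows of 300 bases, from 250 before to 50 after the start, were available for 164 of the 201 members (203 windows, since several genes have more than 1 start). A window was counted as CpG-rich at a GC content of at least 50% and an observed to expected CpG ratio of at least 0.6. This held for 41.2% of the 85 windows of KRAB members and 78.0% of the 118 of other members, against 68.1% of the windows of all genes at or above the minimum and 33.5% of all windows. The SP motif GGGCGG, on either strand, was present in 41.2% and 64.4%, against 62.7% and 35.7%. The letters CCAAT were present in 54.1% and 39.8%, against 38.0% and 37.4%. The ETS letters CCGGAAG were present in 22.4% and 20.3%, against 19.1% and 8.86%. The other 6 motifs searched, on both strands and none contained in another, were those of NRF1 (GCGCATGCG), YY1 (AAGATGGCG), ZNF143 (ACTACAATT), CREB (TGACGTCA), the E-box (CACGTG) and the TATA box (TATAAA). They were present in 2.35% to 10.6% of the windows of KRAB members, in 1.69% to 6.78% of those of other members, in 0.781% to 10.4% of those of all genes at or above the minimum, and in 0.393% to 13.6% of all windows.

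Members without a KRAB box were at a median of 163 per kilobase with a CpG-rich window (74 genes) and 92.1 without (15 genes). KRAB members were at 70.4 with a CpG-rich window (34 genes) and 69.1 without (41 genes). The members without the box were thus the higher class in either kind of promoter. The motifs are matches of letters in these windows and say nothing of which factors bound them.

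Shared sequence touched a minority of the members. Of 201, 36 shared at least 1 window of 100 bases with a transcript of another gene and 11 shared at least 10%, among them Zfp935 (99.3%), Zfp524 (43.6%), Zfp414 (42.0%), Zfp963 (38.0%) and Zfp617 (34.2%). Exonic bases were overlapped by another gene in 66, and by at least 25% in 12. Whether the counting used strand, and how reads that fit several genes were treated, is not given in the sources used here, so the levels of these members are uncertain.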

How the data were processed

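PolyA RNA was sequenced from 10 libraries of HoxB8-derived neutrophils. Reads were trimmed by the authors with Cutadapt 4.4, then mapped to mm10 and quantified with STAR 2.7.10b. The authors normalized the counts with DESeq2 1.26.0 after estimating covariates of unwanted variation with RUVSeq. The deposited files are 4 tables of comparisons, 1 row per gene. The signal used here, named baseMean in the deposited tables, is the authors' mean of normalized counts over all libraries, and it was identical in the 4 tables. The remaining columns hold the authors' own comparisons (fold changes, their standard errors, Wald statistics, p-values, adjusted p-values and labels made from them) and were not used, so no genotype or LPS effect was computed and no test was made. The tables give no values per library, so depth, replicate spread and the precision of the means are unknown. Gene annotation and strand setting of the counting are not given in the sources used here.

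Groups were taken from the labels. Symbols were matched to GENCODE M21 (GRCm38, the mm10 assembly). Of the 201 members 200 matched by symbol and 1 (Zfp607, to Zfp607a) through a RefSeq synonym, and of all 13091 genes 12023 (91.8%) had 1 match. Level per kilobase is the mean divided by the union of annotated exons. Domains were read from translated GENCODE coding sequences in place of the RefSeq proteins first planned. A finger is cysteine, 2 residues, cysteine, 12 residues, histidine, 3 residues, histidine. The wider pattern allowed up to 4 and up to 5 residues within the pairs. The KRAB box was searched by 7 fixed positions within 16 residues, and the patterns for it and for SCAN and BTB were widened after looking at protein sequences, not levels. The finger and KRAB searches were tested on simulated proteins that held the exact patterns, which cannot show how many real domains they find. The SCAN and BTB searches were not tested. Python 3.11.15 with pandas 2.3.3, numpy 2.4.6 and matplotlib 3.10.9 was used.

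The members and gene lists were chosen with earlier results of these data known. Genes named are the 10 highest by mean and per kilobase, those next to the minimum, the 3 highest of each protein class, those with most fingers, the largest cluster, the list of known roles, and, where a result turned on them, genes of the lists of silencing partners and cell type markers, of which 1 marker is not reported here. Some genes named outside this rule were chosen after their values were seen. They are Zfp846, the KRAB members at 1000 or more, the remaining SCAN members and those with most fingers by the wider pattern. Members of other clusters, genes with shared sequence and the pseudogene Zfp939 were chosen in the same way. Alternatives changed the minimum, the symbol rule, the length, the patterns and the cluster distance.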

Additional observations from a re-analysis of the deposited data

How the results depend on the processing

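The number of Zfp genes was 228 at a minimum of 50, 168 at 200, 270 with no minimum, and 216 with symbols that end in a letter included, all within 1.5 times the 201. The median level per kilobase of the members was 114 and became 145 by the longest transcript, 308 by coding length, 139 at a minimum of 200 and 68.0 with no minimum. For KRAB members the median of 69.1 became 100.4, 205 and 46.0 by longest transcript, coding length and no minimum, and for members without the box 141 became 181, 452 and 109.7. A looser KRAB pattern, in which 1 fixed residue may differ, found 91 members in place of 83, with medians of 67.8 with and 159 without the box. Leaving out the 11 members with at least 10% of windows shared gave 76 KRAB members and medians of 68.0 and 140.3. These last medians, and those by the looser pattern, were added after seeing the data. The median without the box was above the median with it as reported and in the 5 settings in which both were computed (longest transcript, coding length, no minimum, looser pattern, shared windows left out), by 1.80 to 2.39 times. The median number of fingers was 9 by either pattern. The largest cluster held 14 genes at 500 kb and at 1000 kb, and 7 at 200 kb, when it lay on chromosome 13 (Zfp759, Zfp595, Zfp953, Zfp87, Zfp748, Zfp738 and Zfp65).

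No paired analysis was possible because the result comes from no test. The values are pooled over all libraries, which leaves no replicate to leave out and no depth to set a limit by.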
